A study of Homo sapiens with 112 samples.

Results

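The genes described here are 10 genes that glucocorticoids are known to raise in many tissues and that other steroids can also control: SGK1, ERRFI1, DUSP1, NFKBIA, CEBPD, KLF9, ZBTB16, PER1, TSC22D1 and TSC22D3. They were taken by symbol from a table of RNA-seq read counts that lists 58684 genes, and all 10 were found in it. Their levels were measured in VCaP and LAPC4, which are androgen-responsive lines derived from human prostate tumours. Serum stripped with charcoal kept all cells without hormone for the first 2 days. They then received DMSO as the vehicle, R1881, which is a synthetic androgen, at 1 nM, or the same R1881 together with 500 nM or 2 µM darolutamide, a drug that blocks the response to androgen. Cells were collected after 8 or 22 h, which gives 8 groups per line. In VCaP there were 10 libraries each of DMSO and R1881 at 8 h, 4 of the low and 5 of the high dose, and at 22 h 8 of DMSO, 9 of R1881, 4 of the low and 5 of the high dose. In LAPC4 there were 10 libraries each of DMSO and R1881 at 8 h, and 7 of DMSO and 10 of R1881 at 22 h, with 5 of each dose at both times. No glucocorticoid was given, and no group received darolutamide without R1881. Each cell line is 1 line, and the labels do not tie libraries to separate cultures, so p-values measure the spread between these libraries.

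Steroid hormones of the glucocorticoid, progestin and androgen classes act through related nuclear receptors that recognise similar DNA elements built from the core AGAACA. In many cell types glucocorticoids raise a set of early genes whose products hold back signalling: phosphatases, inhibitors of kinases and of NF-κB, and transcription factors of the clock, KLF and C/EBP families. Because the DNA elements are shared, some of these genes can also respond to androgen in prostate cells, to a degree that depends on the cell.

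Libraries held 12188455 to 25201678 reads on genes (median 20144050.5), and each of the 10 genes had at least 10 reads in every library. All 10 passed the minimum of 10 reads in 4 libraries in both lines, beside 19266 genes tested in VCaP and 18204 in LAPC4. ERG, which VCaP cells express through a fusion, had 1578 to 21554 reads in each VCaP library and 0 to 1 in each LAPC4 library. The luminal epithelial genes KRT8, KRT18, EPCAM, CDH1 and HOXB13 had at least 2222 reads in every library. Of 16 markers of basal, fibroblast, endothelial and blood cells, none exceeded 657 reads in a VCaP library (LUM) or 104 in a LAPC4 library (LUM), and KRT5, COL1A2 and CD3E were at 0 in all VCaP libraries. Levels are given as CPM after TMM scaling, which is a share of the reads of a library and does not measure the RNA per cell. Fold changes are log2 values with a standard error (SE) from the quasi-likelihood test of edgeR, and a gene was called where the p adjusted over all genes tested (Benjamini-Hochberg) was under 0.05.

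The genes lie on 10 chromosomes (GENCODE 44, GRCh38). SGK1 spans chromosome 6, 134169248 to 134318112, ERRFI1 chromosome 1, 8004404 to 8026309, DUSP1 chromosome 5, 172768096 to 172771195, and NFKBIA chromosome 14, 35401079 to 35404749, all on the minus strand. CEBPD, a gene of 1 exon, spans chromosome 8, 47736913 to 47738164, and KLF9 spans chromosome 9, 70384604 to 70414657, both on the minus strand. ZBTB16 lies on the plus strand of chromosome 11, 114059041 to 114256765. PER1 (chromosome 17, 8140472 to 8156506), TSC22D1 (chromosome 13, 44432143 to 44577147) and TSC22D3 (chromosome X, 107713221 to 107777342) lie on the minus strand. TSC22D1 shares 469 exonic bases with TSC22D1-AS1 on the opposite strand, which had a median of 11 and at most 40 reads in a library, and TSC22D3 shares 71 with NCBP2L, which had at most 6. The strand setting of the counting is not given in the sources used here, so reads in these stretches cannot be assigned to 1 of the genes.

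Compared per kilobase of exon (RPKM, mean ± SD), the 10 genes spanned a wide range in hormone-deprived cells. With DMSO at 22 h in VCaP (n = 8), TSC22D1 was highest at 36.9 ± 0.81 RPKM and NFKBIA next at 12.9 ± 0.439. DUSP1 at 5.61 ± 0.379 and ERRFI1 at 5.46 ± 0.286 did not differ beyond their spread. TSC22D3 (2.2 ± 0.207), KLF9 (1.24 ± 0.154) and CEBPD (0.995 ± 0.316) followed, the last with a spread that reached toward ZBTB16 (0.633 ± 0.0811) and PER1 (0.601 ± 0.0976). SGK1 was lowest at 0.206 ± 0.0344 RPKM. After 8 h of R1881 the order in VCaP had changed at the top, with ERRFI1 at 200.7 ± 18.5 RPKM above TSC22D1 at 134.3 ± 2.95 (n = 10). In LAPC4 with DMSO at 22 h (n = 7), TSC22D1 was again highest at 45.4 ± 1.45 RPKM, but TSC22D3 stood next at 34.9 ± 0.682, and ZBTB16 was lowest at 0.204 ± 0.0454. The order depends on the length used, the union of all annotated exons (9962 bases for SGK1, 16557 for ZBTB16 and 1252 for CEBPD). By CPM, CEBPD was lowest with DMSO at 22 h, at 1.25 in VCaP (SGK1 2.05) and 1.3 in LAPC4 (ZBTB16 3.38).

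RefSeq promoters (GRCh38.p14, 250 bases before to 50 after a start) were at hand for 8 of the 10 genes, with 17 starts in all. CEBPD and ZBTB16 had no entry. Both strands were searched for 5 sets of letters: the core AGAACA, the full element of AGAACA and TGTTCT with any 3 bases between them, the cAMP response element TGACGTCA, its core TGACG, and an NF-κB-like motif of GGGA, any base and TTTCC. TGACGTCA contains TGACG on each strand, so these overlap. AGAACA was present in 2 of the 17 promoters, at 1 start each of SGK1 and TSC22D1, and in 14.8% of all 35116 RefSeq promoters. The full element was in none of the 17 and in 0.00285% of all. TGACGTCA was present in the DUSP1 promoter and in 1.85% of all, TGACG in the promoter of DUSP1 and at 3 starts of TSC22D3 and in 24.6% of all, and the NF-κB-like motif in the NFKBIA promoter and in 0.558% of all. The promoters of SGK1, DUSP1, NFKBIA and TSC22D1 that hold these letters, and that of ERRFI1, are printed where the genes are described, from 5′ to 3′ on the strand of the gene, with the matched letters in capitals. A match is a string of letters and not a measured binding site.

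In VCaP cells, R1881 raised 7 of the 10 genes at both time points and lowered others. At 8 h all 10 were called, 7 higher and 3 lower, where 66.9% of all genes tested were called, 32.8% higher and 34.1% lower. At 22 h 9 were called, 7 higher and 2 lower, where 77.4% were called, 37.4% higher and 40.0% lower. A share of called genes this high says little about the 10 by itself, so the sizes are given too. The 10 genes were chosen with earlier results of these data known, so large sizes are no independent evidence about them. The median absolute log2 fold change of the 10 was 2 at 8 h and 1.34 at 22 h, against 0.328 and 0.525 for all genes tested. The signed medians of the 10 were the same, against -0.03 at both times for all genes, where rises and falls cancel. The changes of SGK1 and ERRFI1 at 8 h were larger in size than those of 99.4% and 99.7% of all genes. The genes that rose were SGK1, ERRFI1, NFKBIA, CEBPD, ZBTB16, PER1 and TSC22D1, and those lower at 8 h were KLF9, DUSP1 and TSC22D3. With 2 µM darolutamide added to R1881, 9 genes differed from R1881 alone at 8 h (7 lower and 2 higher, background 52.1%, of which 26.2% lower and 25.9% higher). At 22 h all 10 were lower than with R1881 alone (background 66.9%, of which 30.8% lower and 36.1% higher), including the 3 genes that R1881 had not raised.

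**Figure D1:**
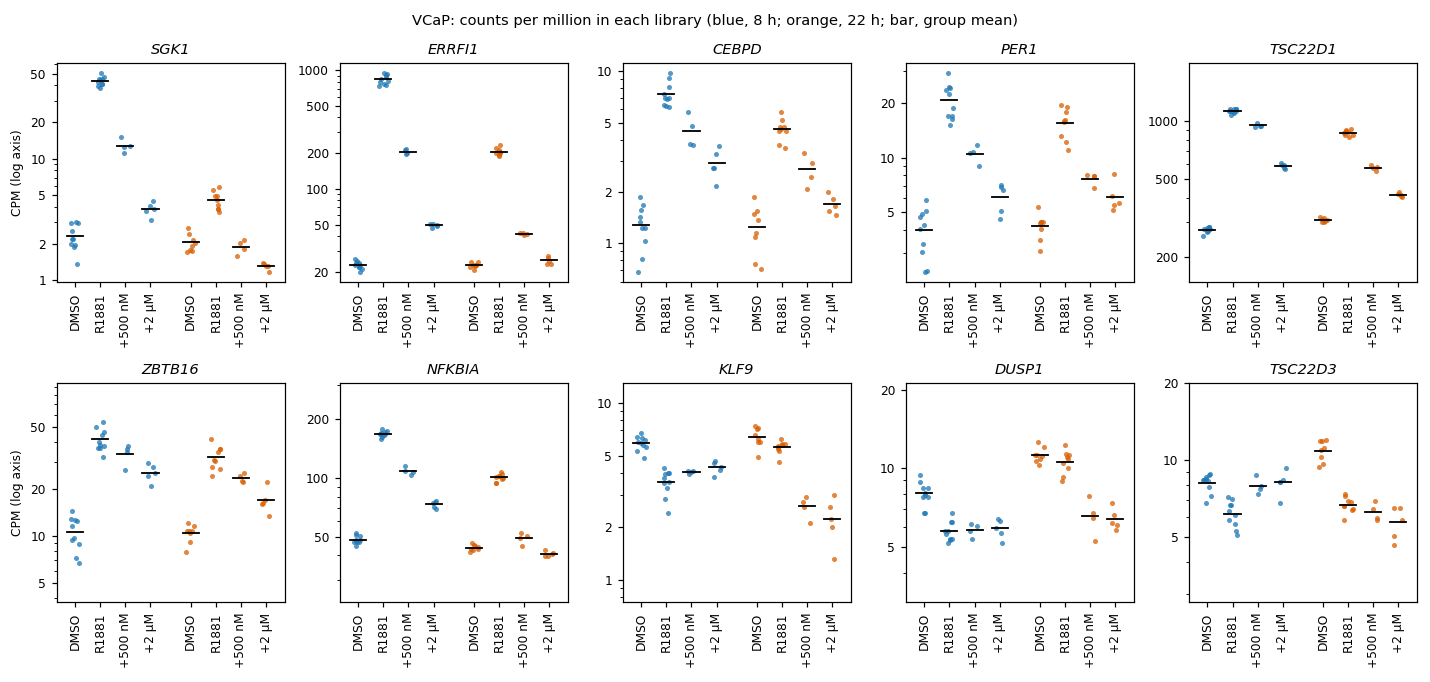
Levels of the 10 genes in VCaP cells. Each point is the CPM of 1 library on a log axis, the horizontal axis gives the treatment at 8 h (blue) and 22 h (orange), and bars mark group means; SGK1 and ERRFI1 with R1881 lie far above DMSO at 8 h, and at 22 h KLF9, DUSP1 and TSC22D3 have their lowest group means with 2 µM darolutamide.

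SGK1 encodes a kinase that raises sodium transport in epithelia, in part by acting on the ubiquitin ligase NEDD4L. It had the second largest R1881 effect of the 10 genes at 8 h, and the one that shrank most by 22 h. In VCaP at 8 h, its level was 1.37 to 3.01 CPM with DMSO (median 2.19) and 38.3 to 50.6 with R1881 (median 43.7). The groups were far apart, with a log2 fold change of 4.24 ± 0.09 (SE), or 18.9-fold (adjusted p = 4.98e-43). The 4 low-dose libraries were at 15, 12.6, 11.1 and 12.5 CPM and the 5 high-dose libraries at 3.83, 3.12, 4.08, 4.49 and 3.69. Each dose lowered the gene, and the high-dose libraries still lay above all DMSO libraries (0.74 ± 0.12, adjusted p = 1.53e-06). By 22 h the R1881 libraries were at only 3.65 to 5.8 CPM (median 4.57) against 1.7 to 2.68 with DMSO (median 1.97), a log2 fold change of 1.14 ± 0.11 (adjusted p = 2.44e-13). The high-dose libraries at 22 h, at 1.3, 1.38, 1.31, 1.35 and 1.17 CPM, all lay below the lowest DMSO library, which is a log2 difference of -0.66 ± 0.16 (adjusted p = 0.000268). The low-dose libraries, at 2.13, 1.57, 1.82 and 2.03 CPM, overlapped DMSO and were not called against it (-0.13 ± 0.16). The difference between the doses at 22 h (-0.53 ± 0.18, adjusted p = 0.0308) was lost without high-dose replicate 5 (0.0704), low-dose replicate 1 (0.0803) or low-dose replicate 4 (0.0656). The SGK1 start with an AGAACA match is shown because SGK1 had the larger change of the pair of genes with that core in a promoter. The capitals mark the core, which begins at base 6 of the transcript.
SGK1 promoter, chr6:134177812-134178111, minus strand: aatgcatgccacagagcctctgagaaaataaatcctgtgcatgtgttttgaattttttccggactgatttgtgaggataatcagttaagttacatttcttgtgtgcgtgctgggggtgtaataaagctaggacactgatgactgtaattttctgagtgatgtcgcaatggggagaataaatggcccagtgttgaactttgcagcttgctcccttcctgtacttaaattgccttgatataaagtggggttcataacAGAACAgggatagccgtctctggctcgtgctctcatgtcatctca

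ERRFI1, also called MIG6, encodes an adaptor that binds and inhibits the EGF receptor family. It had the largest R1881 change of the 10 genes in VCaP. At 8 h the gene was at 19.9 to 25.6 CPM with DMSO (median 23.0) and at 741 to 948 with R1881 (median 826). This is a log2 fold change of 5.19 ± 0.05 (adjusted p = 2.24e-60), with no overlap. Low-dose darolutamide brought it to 199, 212, 199 and 216 CPM and high-dose darolutamide to 49.3, 50.6, 46.5, 51.0 and 48.8, so the 2 doses did not overlap each other, R1881 or DMSO. At 22 h R1881 libraries held 188 to 234 CPM (median 203) against 20.7 to 24.3 with DMSO (median 22.8), a log2 fold change of 3.17 ± 0.05 (adjusted p = 3.28e-49). The low-dose libraries were at 40.8, 41.9, 42.7 and 42.5 CPM at that time, and the high-dose libraries at 24.6, 23.4, 23.2, 27.2 and 26.1. High-dose libraries overlapped DMSO at 22 h and were not called against it (0.12 ± 0.06, adjusted p = 0.0684). With only the compared groups in the fit they were called (0.13, adjusted p = 0.0491). ERRFI1 was thus the gene with the widest range in VCaP, and its promoter is shown as that of the strongest responder. None of the searched letters occurs in this window, which is 74.7% G and C.
ERRFI1 promoter, chr1:8026260-8026559, minus strand: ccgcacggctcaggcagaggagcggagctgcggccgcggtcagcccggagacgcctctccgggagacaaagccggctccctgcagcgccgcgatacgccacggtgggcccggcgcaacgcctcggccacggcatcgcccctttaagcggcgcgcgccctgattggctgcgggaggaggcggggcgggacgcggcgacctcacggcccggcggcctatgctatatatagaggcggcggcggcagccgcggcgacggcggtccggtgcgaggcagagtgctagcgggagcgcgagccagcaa

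DUSP1 encodes a phosphatase that switches off the MAP kinases and is a classic glucocorticoid-induced gene. In VCaP it was not raised by R1881 at either time. At 8 h, DMSO libraries held 6.75 to 9.44 CPM (median 8.0) and R1881 libraries 5.17 to 6.74 (median 5.68), a log2 fold change of -0.48 ± 0.06 (adjusted p = 2.62e-09) between groups that only just did not overlap. Darolutamide did not move it from there, with 5.39, 6.03, 5.76 and 6.15 CPM at the low and 6.33, 5.18, 5.66, 5.93 and 6.42 at the high dose (0.04 ± 0.08 for the high dose against R1881, adjusted p = 0.735). The gene thus stood below DMSO at 8 h with darolutamide as well (-0.45 ± 0.08 at the high dose, adjusted p = 8.51e-06). At 22 h, DMSO (10.3 to 12.7 CPM, median 11.2) and R1881 (8.98 to 12.3, median 10.8) overlapped and the difference was not called (-0.09 ± 0.07, adjusted p = 0.222). The high-dose libraries, at 6.61, 5.81, 7.41, 6.18 and 6.09 CPM, lay below every library of both of these groups. The log2 difference was -0.73 ± 0.08 against R1881 (adjusted p = 7.98e-12) and -0.81 ± 0.08 against DMSO (adjusted p = 6.26e-13). The low-dose libraries were similarly low, at 6.49, 7.86, 6.75 and 5.28 CPM, and the doses were not called different (-0.04 ± 0.10). The DUSP1 promoter is shown because it holds the full cAMP response element, in capitals beginning 125 bases before the start, with further TGACG cores in capitals on either side.
DUSP1 promoter, chr5:172771146-172771445, minus strand: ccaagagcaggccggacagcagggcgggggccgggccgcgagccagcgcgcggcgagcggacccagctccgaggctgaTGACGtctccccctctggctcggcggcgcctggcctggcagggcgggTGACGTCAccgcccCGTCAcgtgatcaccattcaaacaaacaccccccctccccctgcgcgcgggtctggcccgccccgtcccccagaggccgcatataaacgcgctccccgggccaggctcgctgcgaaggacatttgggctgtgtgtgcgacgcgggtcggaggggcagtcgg

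NFKBIA encodes IκBα, which holds NF-κB in the cytoplasm and is itself an NF-κB target. It rose in VCaP at both times with little spread between libraries. At 8 h it was at 44.8 to 52.1 CPM with DMSO (median 47.5) and 158 to 178 with R1881 (median 169), a log2 fold change of 1.81 ± 0.03 (adjusted p = 2.09e-49). The low dose gave 104, 108, 109 and 115 CPM and the high dose 76.1, 70.9, 74.4, 75.7 and 69.0. Both doses lay between R1881 and DMSO with no overlap. At 22 h the values were 41.9 to 46.3 CPM with DMSO (median 43.7) and 94.6 to 107 with R1881 (median 101), or 1.2 ± 0.03 (adjusted p = 1.04e-38). The low-dose libraries stood at 44.5, 52.4, 49.0 and 50.3 CPM, slightly above DMSO (0.16 ± 0.04, adjusted p = 0.000363), and the high-dose libraries at 42.6, 39.9, 41.4, 40.7 and 39.8, slightly below it (-0.10 ± 0.04, adjusted p = 0.0156). These last differences are small and the groups overlap. The low-dose call was lost with control replicates 6 and above alone (0.12 ± 0.05, adjusted p = 0.0635). The high-dose call was lost with the replicate number as a block, which kept only the shared replicate numbers (-0.08 ± 0.06, adjusted p = 0.283). The NFKBIA promoter is shown for its NF-κB-like match, in capitals beginning 81 bases before the start.
NFKBIA promoter, chr14:35404700-35404999, minus strand: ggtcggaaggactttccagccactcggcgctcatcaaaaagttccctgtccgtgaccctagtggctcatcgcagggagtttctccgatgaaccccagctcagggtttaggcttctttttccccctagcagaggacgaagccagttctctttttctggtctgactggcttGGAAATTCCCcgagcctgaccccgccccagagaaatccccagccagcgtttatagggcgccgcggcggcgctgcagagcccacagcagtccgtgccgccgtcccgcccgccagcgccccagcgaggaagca

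CEBPD encodes C/EBPδ, a transcription factor of acute responses. It had only 10 to 38 reads per library in VCaP with DMSO, and its spread was wide. At 8 h it was at 0.684 to 1.87 CPM with DMSO (median 1.28) and 6.18 to 9.71 with R1881 (median 6.97). The log2 fold change was 2.5 ± 0.13 (adjusted p = 2.13e-24). With the low dose it was at 3.76, 3.71, 4.82 and 5.75 CPM and with the high dose at 3.32, 2.16, 3.66, 2.73 and 2.73, all below R1881 and all above DMSO. The doses were separated by a narrow gap, and their difference (-0.63 ± 0.18, adjusted p = 0.00888) was lost without low-dose replicate 4 (0.0987). At 22 h the change with R1881 was 1.86 ± 0.15 (adjusted p = 1.96e-16), from 0.708 to 1.86 CPM with DMSO to 3.55 to 5.8 with R1881. The high-dose libraries at 1.98, 1.82, 1.54, 1.66 and 1.45 CPM overlapped DMSO (0.42 ± 0.19, adjusted p = 0.0571). This difference was called with DESeq2 (0.42, adjusted p = 0.0455) and with control replicates 6 and above alone (0.60, adjusted p = 0.041). The low-dose libraries at 2.91, 3.35, 2.06 and 2.44 CPM did not overlap DMSO (1.08 ± 0.19, adjusted p = 2.66e-06). The dose difference at 22 h (-0.66 ± 0.20, adjusted p = 0.0132) was lost without low-dose replicate 2 (0.0859).

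KLF9 encodes a zinc finger transcription factor that thyroid hormone and glucocorticoids induce in other cells. In VCaP it moved the other way. At 8 h DMSO libraries held 4.88 to 6.8 CPM (median 5.97) and R1881 libraries 2.38 to 4.27 (median 3.66), a log2 fold change of -0.74 ± 0.09 (adjusted p = 7.08e-11) with no overlap. Darolutamide moved the level little at 8 h, to 4.13, 3.95, 4.1 and 4.07 CPM at the low dose and 4.7, 4.33, 4.16, 4.58 and 3.83 at the high dose. The high dose was called above R1881 (0.28 ± 0.11, adjusted p = 0.028) and stayed below DMSO (-0.46 ± 0.10, adjusted p = 0.000402). The call above R1881 was lost without high-dose replicate 1 (0.0769) or 4 (0.0687). With control replicates 1 to 5 alone it was also lost, at 0.28 ± 0.14 (adjusted p = 0.092). At 22 h, R1881 libraries at 4.62 to 6.24 CPM (median 5.7) overlapped DMSO libraries at 4.96 to 7.4 (median 6.39). The difference of -0.21 ± 0.09 (adjusted p = 0.0358) was not called with control replicates 1 to 5 (-0.21 ± 0.13, adjusted p = 0.135) or 6 and above (-0.23 ± 0.14, adjusted p = 0.151) alone. The low-dose libraries at 22 h held 2.76, 2.59, 2.11 and 2.94 CPM and the high-dose libraries 1.98, 2.57, 1.31, 3.01 and 2.2. All 9 lay below every DMSO and R1881 library of that time. For the high dose the log2 difference was -1.33 ± 0.12 against R1881 (adjusted p = 5.17e-15) and -1.54 ± 0.12 against DMSO (adjusted p = 6.7e-17), the latter larger in size than that of 97.2% of all genes.

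ZBTB16, also called PLZF, encodes a zinc finger repressor that androgen and glucocorticoids both induce in prostate cells. In VCaP at 8 h it was at 6.72 to 14.6 CPM with DMSO (median 10.6) and 32.2 to 53.7 with R1881 (median 39.2), a log2 fold change of 1.97 ± 0.11 (adjusted p = 1.87e-23). Among the 7 genes that rose, it had the smallest log2 difference from R1881 with the high dose at 8 h. The low-dose libraries, at 26.6, 36.2, 37.6 and 34.6 CPM, overlapped R1881 and were not called against it (-0.30 ± 0.13, adjusted p = 0.0861). The high-dose libraries at 27.5, 20.9, 29.3, 24.1 and 25.4 CPM were lower than R1881 (-0.71 ± 0.13, adjusted p = 3.5e-06) and above every DMSO library (1.26 ± 0.13, adjusted p = 3.76e-12). At 22 h the R1881 effect was 1.62 ± 0.12 (adjusted p = 4.02e-18), from 7.94 to 12.2 CPM to 24.3 to 41.8. The low-dose libraries then held 24.3, 22.1, 22.5 and 25.5 CPM and the high-dose libraries 16.2, 17.0, 22.1, 16.1 and 13.4. All remained above DMSO, by 0.7 ± 0.14 at the high dose (adjusted p = 2.09e-05). The difference between the doses at 22 h (-0.48 ± 0.16, adjusted p = 0.022) was lost without high-dose replicate 1 (0.0532), 4 (0.0576) or 5 (0.0949). The one at 8 h (-0.41 ± 0.15, adjusted p = 0.0532) became a call without low-dose replicate 1 (0.0218), high-dose replicate 3 (0.0377) or high-dose replicate 3 of 22 h (0.0495), which enters through the shared spread. It was also called with only the compared groups (-0.39, adjusted p = 0.0122) and with the replicate number as a block (-0.39, adjusted p = 0.0444). Control replicates 6 and above alone gave the call too (-0.40, adjusted p = 0.0391).

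PER1 encodes a repressor of the circadian clock and is an early target of glucocorticoids through elements near the gene. It rose in VCaP at both times. At 8 h it went from 2.35 to 5.88 CPM with DMSO (median 4.16) to 15.1 to 29.3 with R1881 (median 20.7), a log2 fold change of 2.4 ± 0.13 (adjusted p = 1.07e-23). The low dose gave 9.02, 10.6, 10.8 and 11.7 CPM and the high dose 7.04, 4.58, 6.93, 6.67 and 5.08. The high dose overlapped DMSO but stood above it on average (0.62 ± 0.17, adjusted p = 0.00293). At 22 h the values were 3.08 to 5.35 CPM with DMSO (median 4.4) and 11 to 19.6 with R1881 (median 16), or 1.91 ± 0.14 (adjusted p = 1e-17). The low-dose libraries held 7.9, 7.97, 6.85 and 8.02 CPM and the high-dose libraries 6.16, 5.65, 8.09, 5.18 and 5.48, with no call between the doses (-0.33 ± 0.19, adjusted p = 0.257). The high dose was called above DMSO (0.55 ± 0.17, adjusted p = 0.00529), but not without high-dose replicate 3 (0.40, adjusted p = 0.0534).

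TSC22D1 and TSC22D3 encode leucine zipper proteins of 1 family, the second known as GILZ, an anti-inflammatory glucocorticoid target. The relatives moved in opposite directions in VCaP. TSC22D1 at 8 h was at 255 to 283 CPM with DMSO (median 277) and 1071 to 1149 with R1881 (median 1126), a log2 fold change of 2.03 ± 0.02 (adjusted p = 1.21e-58). It fell to 941, 932, 975 and 935 CPM with the low and 564, 595, 570, 591 and 604 with the high dose. At 22 h the ranges were 299.6 to 319 CPM with DMSO and 825 to 911 with R1881 (1.49 ± 0.02, adjusted p = 1.4e-50), with 554, 590, 575 and 570 at the low and 410, 417, 403, 419 and 431 at the high dose. Within each time the 4 groups did not overlap, and the high dose stayed above DMSO at 22 h (0.43 ± 0.03, adjusted p = 1.2e-21). TSC22D1 has 5 RefSeq starts, and the one with an AGAACA match, on the opposite strand as TGTTCT in capitals beginning 94 bases before the start, is shown. Which start the reads came from cannot be read from counts per gene.
TSC22D1 promoter, chr13:44474292-44474591, minus strand: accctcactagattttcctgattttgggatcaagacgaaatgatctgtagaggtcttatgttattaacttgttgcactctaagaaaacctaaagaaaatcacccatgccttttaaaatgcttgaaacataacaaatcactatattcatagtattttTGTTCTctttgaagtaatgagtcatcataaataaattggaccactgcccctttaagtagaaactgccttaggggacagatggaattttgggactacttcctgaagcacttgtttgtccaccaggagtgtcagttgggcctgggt

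TSC22D3 in VCaP at 8 h was at 6.77 to 8.85 CPM with DMSO (median 8.37) and 5.08 to 7.15 with R1881 (median 6.19), overlapping groups with a log2 fold change of -0.40 ± 0.07 (adjusted p = 3.28e-07). With the high dose it was back at 9.29, 6.79, 8.39, 8.24 and 8.24 CPM, within the DMSO range but for 1 library above it, and it was not called against DMSO (adjusted p = 0.974). At 22 h it fell from 9.42 to 12 CPM with DMSO (median 11) to 5.85 to 7.34 with R1881 (median 6.61), or -0.70 ± 0.07 (adjusted p = 2.61e-13). Here darolutamide did not bring it back. The low-dose libraries held 6.44, 5.83, 5.94 and 6.9 CPM and the high-dose libraries 6.48, 6.49, 5.06, 4.66 and 5.81, all below the lowest DMSO library (-0.93 ± 0.08 for the high dose, adjusted p = 2.22e-14). The high dose was called below R1881 too (-0.23 ± 0.08, adjusted p = 0.0141), but not without high-dose replicate 4 (-0.17, adjusted p = 0.0823) or with control replicates 6 and above alone (-0.17, adjusted p = 0.17).

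**Figure D2:**
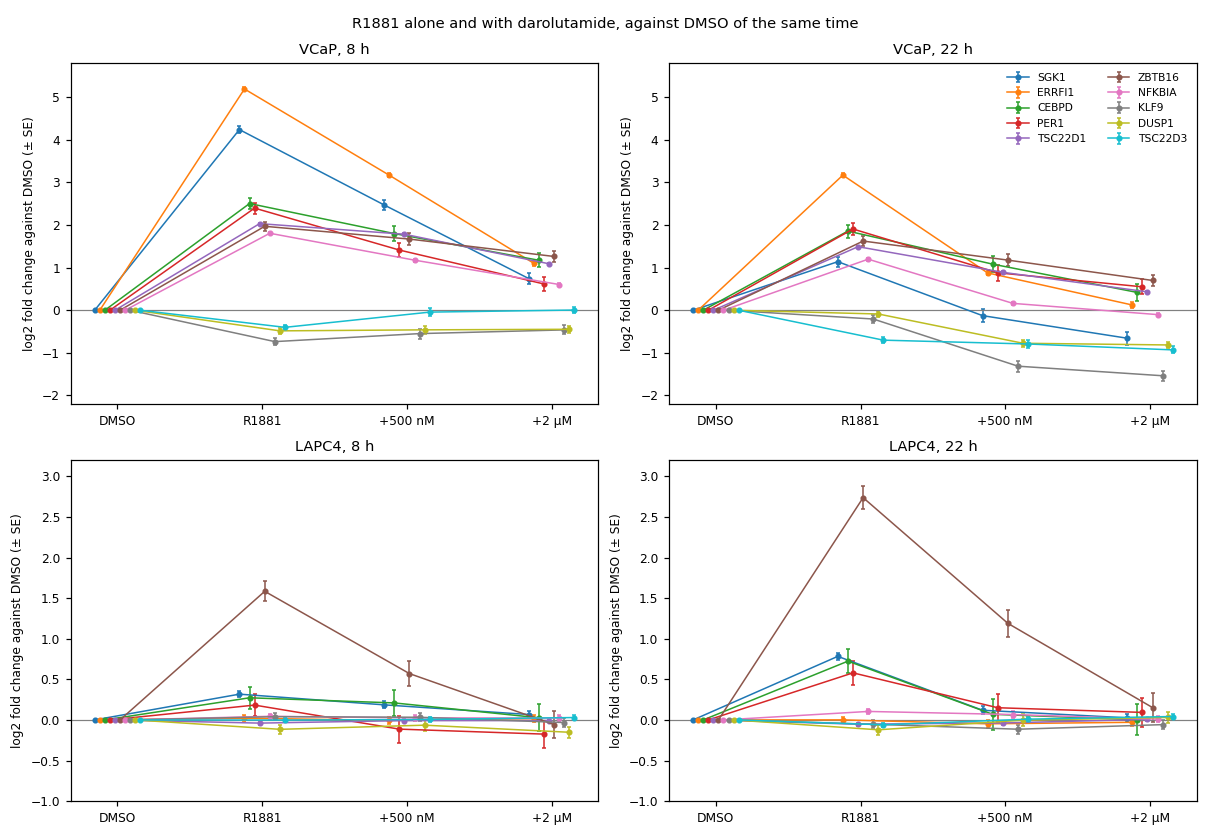
Log2 fold change of the 10 genes against DMSO of the same line and time (vertical axis, ± SE) for DMSO, R1881 alone and R1881 with 500 nM or 2 µM darolutamide (horizontal axis). In VCaP the 7 genes that rose come down with dose, while KLF9, DUSP1 and TSC22D3 end below DMSO at 22 h, at -1.54, -0.81 and -0.93 with the high dose; in LAPC4 ZBTB16 stands apart.

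By dose, 500 nM darolutamide changed 7 of the 10 genes against R1881 at 8 h in VCaP (background 30.6%) and 9 at 22 h (background 53.0%), the latter all lower. The high dose was lower than the low dose for 6 genes at 8 h (background 17.6%), namely SGK1, ERRFI1, NFKBIA, CEBPD, PER1 and TSC22D1. It was lower for 6 at 22 h (background 20.2%), with ZBTB16 in place of PER1. Of all genes, 10.0% were lower and 7.53% higher with the high than with the low dose at 8 h, and 9.75% and 10.4% at 22 h, while none of the 10 was called higher at either time. Against DMSO, the high dose left 9 genes called at 8 h, 7 higher and 2 lower (background 27.5%, of which 15.4% higher). At 22 h it left 8, with ZBTB16, PER1 and TSC22D1 higher and SGK1, KLF9, DUSP1, NFKBIA and TSC22D3 lower (background 59.0%, of which 30.5% higher and 28.5% lower). With the low dose 9 were called against DMSO at 8 h (7 higher and 2 lower, background 44.9%, of which 23.7% higher and 21.2% lower) and 9 at 22 h (6 higher and 3 lower, background 62.7%, of which 31.9% higher and 30.8% lower). Comparisons with R1881 and with DMSO share darolutamide libraries, and their values are therefore not independent of each other.

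The R1881 effect in VCaP differed between the times for 9 of the 10 genes by an interaction contrast (7 lower and 2 higher, background 60.4%, of which 32.3% lower and 28.1% higher). It was smaller at 22 h for SGK1 by 3.1 ± 0.15 on the log2 scale, which was larger in size than the time difference of 99.2% of all genes (adjusted p = 2.47e-25). For ERRFI1 the difference was -2.02 ± 0.07 (adjusted p = 1.76e-33), and CEBPD, NFKBIA, TSC22D1 and PER1 fell between -0.65 and -0.49. The falls of KLF9 and DUSP1 at 8 h had shrunk by 22 h, with differences of 0.53 ± 0.13 (adjusted p = 0.000252) and 0.4 ± 0.09 (adjusted p = 0.000217). TSC22D3 went the other way, with a larger fall at 22 h (-0.30 ± 0.10, adjusted p = 0.00588). ZBTB16 was not called (-0.35 ± 0.16, adjusted p = 0.0578), but it was with DESeq2 (-0.34, adjusted p = 0.0444). Control replicates 1 to 5 alone also gave a call for ZBTB16 (-0.57, adjusted p = 0.0249). So did the replicate number as a block (-0.46, adjusted p = 0.031). Several of these calls were lost with part of the controls, which leaves fewer libraries. With control replicates 6 and above alone the difference of PER1 shrank to -0.16 (adjusted p = 0.614). Those of CEBPD (-0.63, adjusted p = 0.094) and TSC22D3 (-0.28, adjusted p = 0.136) lost the call at nearly the same size. With replicates 1 to 5 alone CEBPD (-0.61, adjusted p = 0.0516) and TSC22D3 (-0.29, adjusted p = 0.0549) were again not called. DUSP1 (0.28, adjusted p = 0.0757) was also lost there. DMSO libraries themselves differed between 22 and 8 h for 4 of the genes (background 29.8%), with DUSP1 higher by 0.49 ± 0.07, TSC22D3 by 0.41 ± 0.07 and TSC22D1 by 0.17 ± 0.02, and NFKBIA lower at -0.14 ± 0.03.

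**Figure D3:**
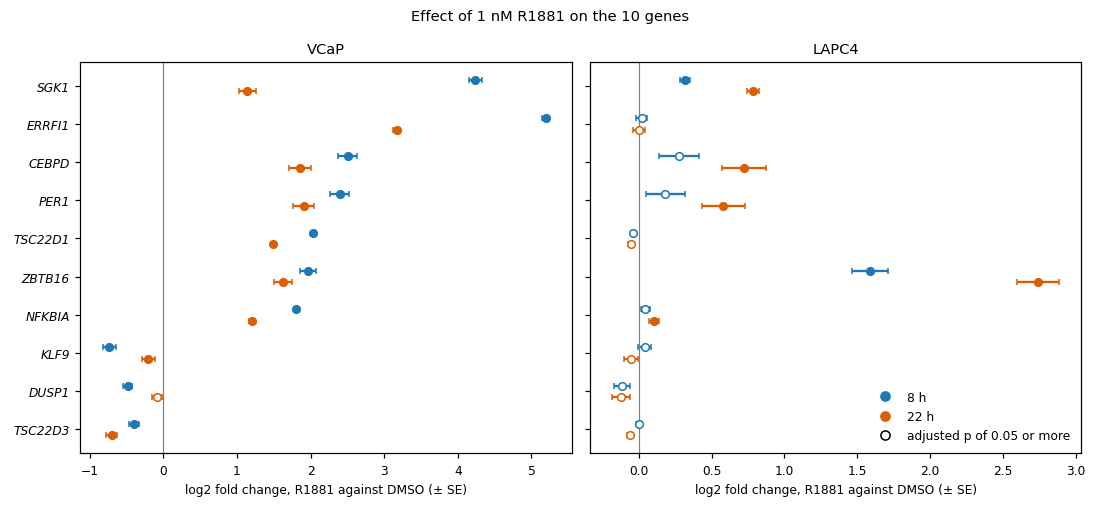
Log2 fold change of R1881 against DMSO (horizontal axis, ± SE) for each gene in VCaP (left) and LAPC4 (right, a narrower axis) at 8 h (blue) and 22 h (orange); open circles were not called. SGK1 and ERRFI1 move from 4.24 and 5.19 at 8 h to 1.14 and 3.17 at 22 h in VCaP, while ZBTB16 in LAPC4 moves from 1.58 to 2.74.

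LAPC4 cells responded with fewer of these genes, and with more of them at 22 h than at 8 h. At 8 h R1881 raised ZBTB16 and SGK1 (2 of 10, background 2.64%, of which 1.75% higher and 0.895% lower). At 22 h it raised 5 of 10 (background 13.3%), with PER1, CEBPD and NFKBIA added. None was called lower at either time. The median log2 fold change of the 10 was 0.04 at 8 h and 0.05 at 22 h, against -0.01 and 0.01 over all genes tested. With 2 µM darolutamide, ZBTB16 and SGK1 were lower than with R1881 at 8 h (background 1.54%), and ZBTB16, SGK1, CEBPD and PER1 were lower and TSC22D3 slightly higher at 22 h (background 10.5%). Against DMSO the high dose left no gene called at 8 h (background 0.0110%) or 22 h (background 0.0165%) by the edgeR test.

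ZBTB16 was the strongest responder of the 10 in LAPC4, and its changes at 8 h and 22 h were among the largest of all genes tested. At 8 h it was at 3.38 to 5.92 CPM with DMSO (median 4.18) and 10.8 to 16.4 with R1881 (median 13), a log2 fold change of 1.58 ± 0.12 (adjusted p = 6.12e-15). Low-dose libraries held 9.27, 4.76, 6.06, 7.77 and 4.88 CPM, all below R1881 (-1.01 ± 0.15, adjusted p = 9.52e-06), and high-dose libraries 5.7, 3.1, 3.19, 4.3 and 4.82. At 22 h the gene was at 2.81 to 4.75 CPM with DMSO (median 3.05) and 15.8 to 28.1 with R1881 (median 22.3), or 2.74 ± 0.14, which is 6.67-fold (adjusted p = 1.26e-22). The low-dose libraries, at 10.2, 5.11, 8.95, 7.01 and 7.15 CPM, lay between the groups with no overlap. The high-dose libraries, at 3.88, 3.01, 4.4, 3.21 and 4.35 CPM, lay within the DMSO range (0.15 ± 0.18 against DMSO). ZBTB16 was the one gene of the 10 called between the doses in LAPC4 at 22 h (-1.04 ± 0.18, adjusted p = 0.000759, background 0.258%), and none was called at 8 h (background 0.0275%). The low dose stayed above DMSO at 22 h (1.19 ± 0.17, adjusted p = 4.41e-06, background 0.648%).

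SGK1 rose in LAPC4 from 23.9 to 28 CPM with DMSO (median 25.7) to 29.1 to 35 with R1881 (median 32.4) at 8 h, a log2 fold change of 0.32 ± 0.04 (adjusted p = 1.54e-09). At 22 h it was at 23.3 to 26.7 CPM with DMSO (median 25.2) and 40.8 to 46.3 with R1881 (median 43.6), or 0.78 ± 0.04 (adjusted p = 3.61e-23). The low-dose libraries at 22 h held 26.3, 28.4, 28.4, 29.4 and 25.2 CPM and the high-dose libraries 26.8, 27.1, 26.4, 24.5 and 24.2. Both doses were well below R1881, by -0.66 ± 0.04 and -0.76 ± 0.05, and overlapped DMSO. At 8 h the low-dose libraries held 27.6, 33.4, 31.4, 27.7 and 26.6 CPM. They were called above DMSO (0.19 ± 0.04, adjusted p = 0.0457, background 0.187%), a call that ended without low-dose replicate 2 (0.619), 3 (0.336) or 4 (0.0547) and without any of 6 libraries of other darolutamide groups. Without low-dose replicate 2 the same libraries were called below R1881 (-0.18, adjusted p = 0.0342), which they were not with it (-0.13 ± 0.04, adjusted p = 0.306, background 0.626%).

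CEBPD and PER1 rose in LAPC4 at 22 h with overlapping groups. CEBPD was at 0.518 to 1.77 CPM with DMSO (median 1.29) and 1.43 to 2.8 with R1881 (median 2.14), from 10 to 52 reads per library, and the log2 fold change was 0.72 ± 0.15 (adjusted p = 0.000234). With the high dose it was at 1.38, 1.27, 1.53, 1.25 and 1.1 CPM (-0.72 ± 0.17 against R1881, adjusted p = 0.00174). The call for the low dose at 22 h, where 3 genes were called in all (background 5.89%), was lost for CEBPD (-0.65 ± 0.17, adjusted p = 0.00806) without low-dose replicate 4 (0.0541) or 5 (0.0509). PER1 was at 15.4 to 22.4 CPM with DMSO (median 18.9) and 21.6 to 34.7 with R1881 (median 27.8), or 0.58 ± 0.15 (adjusted p = 0.00334). With control replicates 1 to 5 alone it was at 0.56 ± 0.20 and not called (adjusted p = 0.0717). With replicates 6 and above alone it was at 0.64 ± 0.29 and not called (adjusted p = 0.296), where DMSO keeps only replicates 6 and 7. Its high-dose libraries spread from 12.8 to 27.2 CPM, at 22.6, 17.1, 20.9, 12.8 and 27.2. The difference from R1881 (-0.49 ± 0.16, adjusted p = 0.0456) was lost without high-dose replicate 1 (0.0503), 2 (0.142), 3 (0.0751) or 4 (0.213). The low-dose difference (-0.43 ± 0.16, adjusted p = 0.136) became a call without low-dose replicate 1 (0.0222), the highest library at 30.4 CPM.

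The other genes moved little in LAPC4. NFKBIA was at 55.5 to 60.8 CPM with DMSO and 60 to 68.8 with R1881 at 22 h (0.10 ± 0.03, adjusted p = 0.0274). It was not called with control replicates 1 to 5 (0.06 ± 0.04, adjusted p = 0.443) or 6 and above (0.16 ± 0.06, adjusted p = 0.226) alone. ERRFI1, the strongest responder in VCaP, was at 48.62 ± 3.48 CPM with DMSO (SD, n = 7) and 48.65 ± 3.24 with R1881 (n = 10) at 22 h. TSC22D1 (-0.05 ± 0.02, adjusted p = 0.055), TSC22D3 (-0.06 ± 0.02, adjusted p = 0.075), KLF9 (-0.05 ± 0.05) and DUSP1 (-0.12 ± 0.06) were not called at 22 h. With control replicates 1 to 5 alone, DUSP1 (-0.20, adjusted p = 0.0438) and TSC22D3 (-0.09, adjusted p = 0.0243) were called lower. TSC22D1 at 22 h became a call with DESeq2 (adjusted p = 0.031) or RLE scaling (0.0432), and without low-dose replicate 4 (0.0453) or 5 (0.0429) of 8 h, through the shared spread. TSC22D3 was the one gene of the 10 that differed between DMSO at 22 and 8 h in LAPC4 (0.14 ± 0.02, adjusted p = 2.03e-06, background 22.1%), and with the high dose at 22 h it was at 181, 177, 180, 174 and 179 CPM against 157 to 175 with R1881 (0.10 ± 0.03, adjusted p = 0.00333). With control replicates 6 and above alone neither difference was called (0.09, adjusted p = 0.182, and 0.08, adjusted p = 0.13).

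**Figure D4:**
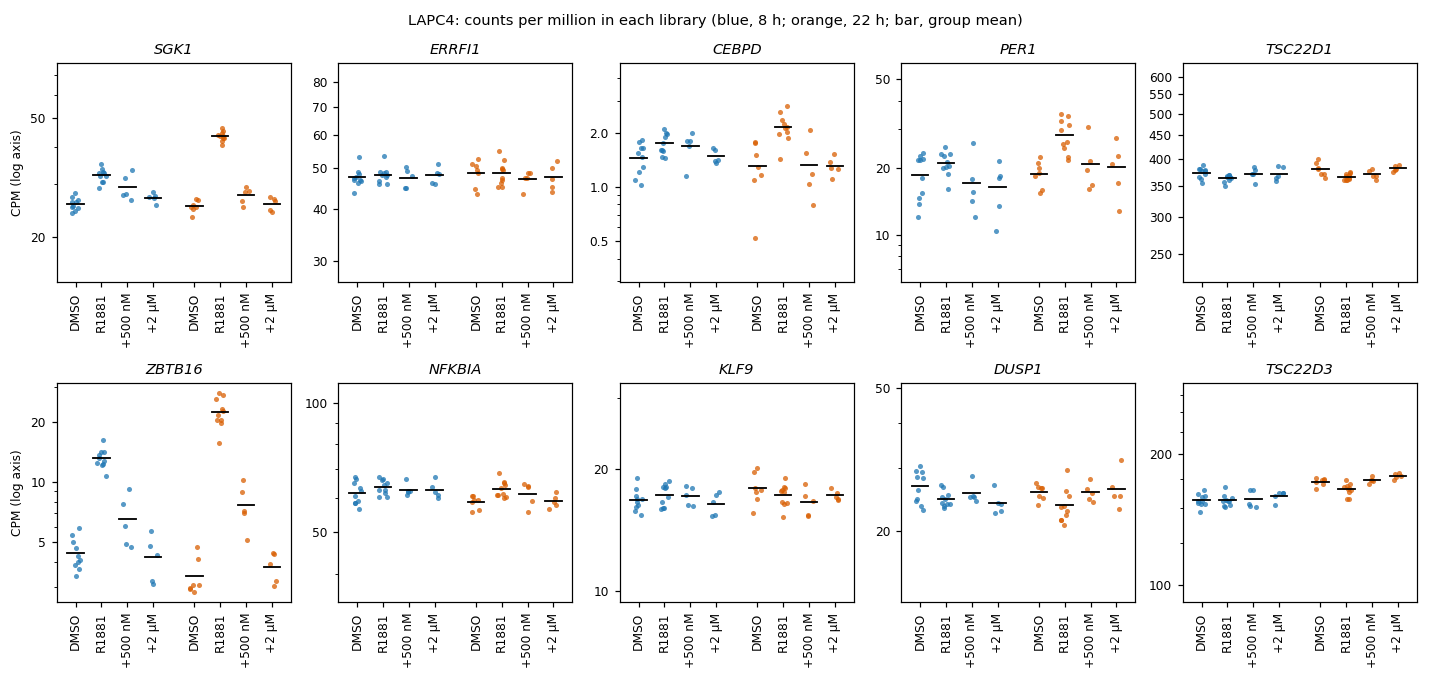
Levels of the 10 genes in LAPC4 cells. Each point is the CPM of 1 library on a log axis, the horizontal axis gives the treatment at 8 h (blue) and 22 h (orange), and bars mark group means; ZBTB16 and SGK1 have their highest group means with R1881, and the wide scatter of PER1 and CEBPD within groups is visible.

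Set side by side, the lines differed in both the starting levels and the effects, in a joint fit over 16578 genes. With DMSO at 22 h, 8 of the 10 genes differed between VCaP and LAPC4 (background 85.5%), a count that says little about the 10 by itself. TSC22D3 was lower in VCaP by 12.9-fold (log2 -3.69 ± 0.05), at 12.5 ± 1.17 CPM against 161.7 ± 2.77 (SD) on the scale of the joint fit. CPM given elsewhere were scaled within each line and are not compared between lines. SGK1 was lower by 9.93-fold (log2 -3.31 ± 0.09), PER1 by 3.66-fold, KLF9 by 2.25-fold, DUSP1 by 1.84-fold and ERRFI1 by 1.72-fold. NFKBIA was called slightly lower too, a call lost with control replicates 6 and above alone (-0.08, adjusted p = 0.27). ZBTB16 was the one gene called higher in VCaP, by 3.8-fold (log2 1.92 ± 0.15), and TSC22D1 and CEBPD were not called. The tests of the difference in R1881 effect called 9 genes at 8 h (background 58.5%), all but ZBTB16 (0.30 ± 0.16, adjusted p = 0.103), and 8 at 22 h (background 68.5%), all but KLF9 and DUSP1. ZBTB16 was the only gene of the 10 with a larger rise in LAPC4 at 22 h (-1.17 ± 0.18 for VCaP minus LAPC4, adjusted p = 1.14e-08). SGK1 at 22 h differed between the lines by only 0.3 ± 0.11 (adjusted p = 0.0165). With control replicates 6 and above alone, the differences of SGK1 (0.27, adjusted p = 0.17) and CEBPD (0.64, adjusted p = 0.153) at 22 h were not called. The time course went in opposite directions: from 8 to 22 h the R1881 effect grew in LAPC4 for SGK1 (0.47 ± 0.05, adjusted p = 7.06e-09) and ZBTB16 (1.15 ± 0.19, adjusted p = 2.27e-05), the 2 genes called there (background 3.21%), while that of SGK1 shrank in VCaP. The effect of 2 µM darolutamide against R1881 differed between lines for 9 genes at 8 h (background 39.9%) and 10 at 22 h (background 58.9%).

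Receptors of this family other than the one for androgen were themselves altered in VCaP. NR3C1, the glucocorticoid receptor gene, was lower with R1881 at 8 h (-1.40 ± 0.11, adjusted p = 2.14e-17) and 22 h (-0.79 ± 0.12, adjusted p = 1.91e-08), and PGR, the progesterone receptor gene, was lower by -4.54 ± 0.44 at 22 h (adjusted p = 1.07e-13). NR3C2, the mineralocorticoid receptor gene, was higher at 8 h (0.43 ± 0.07) and not called at 22 h. Of 5 receptor genes listed, 3 were tested in VCaP. With 2 µM darolutamide 2 of these 3 were higher than with R1881 alone at 8 h (25.9% of all genes higher). At 22 h 1 was higher (36.1% of all genes higher), and 0 were lower at either time. In LAPC4, with 2 tested, NR3C2 was lower at 22 h (-0.22 ± 0.05, adjusted p = 0.00175) and NR3C1 was not called (-0.09 ± 0.12).

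Beside the counts that follow, 32.8% of all genes tested were higher and 34.1% lower with R1881 in VCaP at 8 h, and 37.4% and 40.0% at 22 h, and in LAPC4 1.75% were higher and 0.895% lower at 8 h, and 6.83% and 6.45% at 22 h. The lists were not tested as sets. Among 27 further genes known to respond to glucocorticoids, 22 were tested in VCaP, of which 13 were higher and 5 lower at 8 h and 10 higher and 9 lower at 22 h. Their median log2 fold change was 0.53 at 8 h and 0.11 at 22 h. FKBP5, a receptor co-chaperone, had the largest rise at 22 h (5.49 ± 0.04), followed by TIPARP (1.97 ± 0.06), an ADP-ribosyltransferase. In LAPC4, 4 of 23 were higher and 1 lower at 8 h and 5 higher and 2 lower at 22 h, led by KLF15 (1.57 ± 0.37) and FKBP5 (1.36 ± 0.04). SGK1 and the sodium transport genes showed 6 of 11 higher and 3 lower in VCaP at 8 h, and 6 and 4 at 22 h, among them NDRG1, a substrate of SGK1 (2.38 ± 0.03 at 22 h). In LAPC4, 1 of 10 was higher and 1 lower at 8 h, and 2 and 3 at 22 h, with the channel subunits SCNN1G (-1.59 ± 0.10) and SCNN1B (-0.96 ± 0.07) lower.

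Of 17 clock genes other than PER1, 6 were higher and 9 lower at 8 h in VCaP and 5 higher and 10 lower at 22 h, led by the repressors CIART (-2.87 ± 0.49) and BHLHE41 (-2.79 ± 0.10) at 22 h. In LAPC4 none of 17 was called at 8 h, and at 22 h 1 was higher, HLF (0.59 ± 0.21), and 5 lower, among them PER3 (-0.36 ± 0.12). NF-κB pathway genes beside NFKBIA were 7 higher and 6 lower of 17 at 8 h in VCaP, and 9 and 6 at 22 h, with BCL3 (1.94 ± 0.14) higher and NFKBIZ (-1.45 ± 0.08) lower. In LAPC4, 1 of 15 was higher at each time, NFKBIZ (0.16 ± 0.05) at 22 h. Of the immediate early genes, to which DUSP1 is close in behaviour in other systems, 9 of 16 were higher and 5 lower at 8 h in VCaP and 7 and 6 at 22 h, with NR4A2 (-4.83 ± 0.13) and ZFP36 (1.86 ± 0.12) furthest. In LAPC4, 1 of 18 was lower at 8 h, and 1 was higher, FOSL2 (0.21 ± 0.06), and 2 lower at 22 h, among them NR4A2 (-0.28 ± 0.05).

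The relatives of the transcription factors split too. Among KLF and SP genes beside KLF9, 7 of 15 were higher and 5 lower at 8 h in VCaP and 7 and 3 at 22 h, with KLF4 at 2.41 ± 0.06 and KLF12 at -1.18 ± 0.15. In LAPC4 1 was higher and 1 lower at 8 h, and at 22 h 3 were higher and 4 lower, with KLF15 and KLF7 (0.49 ± 0.05) furthest. Of 4 C/EBP genes beside CEBPD, 3 were higher and 1 lower at 8 h and 4 higher at 22 h in VCaP, among them CEBPB (1.06 ± 0.11) and CEBPG (0.65 ± 0.04), and none was called in LAPC4 at either time. ERRFI1 acts on the ERBB receptors. Of 9 genes of a list of these receptors and their ligands that also includes LRIG1, 2 were higher and 6 lower at 8 h in VCaP. At 22 h 4 were higher and 4 lower, with LRIG1 (2.31 ± 0.03), another inhibitor of these receptors, and EGF (2.22 ± 0.17) furthest. In LAPC4, 1 of 10 was higher at 8 h, and LRIG1 (0.6 ± 0.03) was higher and ERBB4 (-0.22 ± 0.06) lower at 22 h. Relatives of TSC22D1, TSC22D3 and ZBTB16 were 7 of 10 higher and none lower at 8 h in VCaP, and 7 and 2 at 22 h, with ZBTB7B (1.74 ± 0.15) and ZBTB20 (-1.06 ± 0.15) furthest. In LAPC4, 2 of 9 were higher at 8 h, and ZBTB7C (0.98 ± 0.09) and BCL6 (0.18 ± 0.04) were higher and 1 lower at 22 h. Several genes stand in more than 1 of these lists.

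The pattern over the 16 groups, as the Pearson r of group means of log2 CPM centred within each line, was most like that of another gene as follows. The values describe these 16 means, which share libraries and are dominated by the larger changes in VCaP. ERRFI1 was most like AFF4 (r = 0.995), NFKBIA like LGALS3 (0.993), TSC22D1 like TPD52 (0.989) and SGK1 like RAPGEF2 (0.985). PER1 was most like C12orf65 (0.977), CEBPD like EAF2 (0.977) and ZBTB16 like ZNF613 (0.973). The genes that fell in VCaP had KHNYN for KLF9 (0.965), STAT2 for TSC22D3 (0.965) and KAT7 for DUSP1 (0.949). Within LAPC4 alone, the r of these pairs ranged from -0.674 (TSC22D1 with TPD52) to 0.983 (ZBTB16 with ZNF613), so not all were alike there. Within the 10, ERRFI1 and NFKBIA were nearest to each other (0.975), SGK1 was nearest to NFKBIA (0.945), and KLF9 and TSC22D3 were nearest to each other (0.758).

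The precision differed between the genes. The SD of log2 CPM within groups was 0.0389 for TSC22D1, 0.0603 for NFKBIA and 0.0971 for ERRFI1 in VCaP, against 0.172 for the median of all genes, and 0.307 for PER1, 0.254 for ZBTB16 and 0.318 for CEBPD. CEBPD had few reads, while PER1 and ZBTB16 did not. Their deviations from the group means followed the first principal component of the deviations of all genes, which held 21.6% of this variance in VCaP and 29.1% in LAPC4. For PER1 the correlation with this component was r = 0.893 and rho = 0.896 over 55 VCaP libraries, and r = 0.962 and rho = 0.956 over 57 LAPC4 libraries (permutation p = 1e-05 each, the smallest that 100000 resamples can give, adjusted p at most 2.86e-05 over 20 relations). For ZBTB16 it was r = 0.921 and rho = 0.921 in VCaP and r = 0.767 and rho = 0.735 in LAPC4, with the same p. Without the 2 libraries farthest out on the component, r was 0.883 and 0.955 for PER1 and 0.914 and 0.752 for ZBTB16. ERRFI1 went the opposite way in both lines (r = -0.564 and -0.731). The 10 genes are among those from which the component was computed, and what sets it was not tested.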

How the data were processed

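Poly-A RNA of VCaP and LAPC4 cells was sequenced as single-end reads from stranded libraries. Per the labels and the study's methods, the authors made read files with bcl2fastq 2.17, used STAR for alignment (GRCh38) and featureCounts for the number of reads on each gene, and ran DESeq2. The deposited values are raw counts per gene for 112 libraries, all of which were used. Versions of the other tools, the annotation, the setting for strand and the rule for multimapping reads are not given in the sources used here. The methods state 5 biological replicates per condition, while groups held 4 to 10 libraries. No library pair was alike within sampling noise over 382 replicate pairs (chi-square per degree of freedom 1.47 to 39).

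A gene was tested in a line where 4 or more of its libraries had 10 or more reads. The 8 groups of a line were fitted together in edgeR 4.0.16 (R 4.3.3, TMM, glmQLFit and glmQLFTest), and both lines jointly for differences between lines. The SE was derived from the fold change and the F statistic, as |log2 fold change| over √F. Log2 CPM used a prior count of 2. RPKM divided mean CPM by the union of GENCODE 44 exons. Time and line differences used interaction contrasts. The test was checked on simulated counts. Alternatives were DESeq2 1.42.0, RLE scaling, no filter, filterByExpr, fits of the compared groups, subsets of control replicates, the first deviation component as a covariate, a replicate block and omission of each darolutamide library. The control subsets leave fewer libraries, so a call can be lost there at an unchanged fold change. Control replicates 6 and above hold only replicates 6 and 7 of DMSO at 22 h in LAPC4. The members and gene lists were chosen with earlier results of these data known. The genes named are all 10 members, the 2 called genes of each list with the largest change at 22 h in each line, and the gene most like each member, except that 1 gene of these lists is not reported here. NR3C1 and NR3C2 at other times or lines were named after their values were seen.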

Additional observations from a re-analysis of the deposited data

Results flagged for a closer look

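Of 160 sets of libraries (10 genes in 16 groups) tested for a library far from the rest by Dixon's criterion, 5 held one, where chance alone flags about 1 in 20. PER1 in VCaP with the low dose at 22 h had 1 library at 6.85 CPM while the others were at 7.9 to 8.02. In LAPC4, DUSP1 with the low dose at 8 h had 1 at 28.4 CPM against 24.2 to 25 in the others, and NFKBIA in the same group 1 at 66.5 against 60.9 to 62.4. ERRFI1 in LAPC4 had 1 low-dose library of 22 h at 43.4 CPM against 47.3 to 48.7, and 1 R1881 library of 8 h at 53.6 against 45.7 to 49. The 5 values came from 5 different libraries.

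The other values flagged are 47 differences between the effects in 2 settings, each called by an interaction contrast in edgeR. In VCaP, the R1881 effect at 22 h minus that at 8 h was -3.10 for SGK1, -2.02 for ERRFI1, -0.65 for CEBPD, -0.61 for NFKBIA, -0.54 for TSC22D1, -0.49 for PER1 and -0.30 for TSC22D3, and it was 0.53 for KLF9 and 0.40 for DUSP1 (adjusted p at most 0.0266). In LAPC4 it was 1.15 for ZBTB16 and 0.47 for SGK1 (adjusted p at most 2.27e-05).

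The R1881 effect in VCaP minus that in LAPC4 at 8 h was 5.09 for ERRFI1, 3.84 for SGK1, 2.15 for CEBPD, 2.13 for PER1, 1.99 for TSC22D1 and 1.68 for NFKBIA, and -0.86 for KLF9, -0.49 for TSC22D3 and -0.45 for DUSP1 (adjusted p at most 2.98e-07). At 22 h it was 3.11 for ERRFI1, 1.49 for TSC22D1, 1.27 for PER1, 1.08 for CEBPD, 1.04 for NFKBIA and 0.30 for SGK1, and -1.17 for ZBTB16 and -0.70 for TSC22D3 (adjusted p at most 0.0165).

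The effect of 2 µM darolutamide against R1881 in VCaP minus that in LAPC4 at 8 h was -4.03 for ERRFI1, -3.19 for SGK1, -1.36 for PER1, -1.12 for NFKBIA, -1.03 for CEBPD and -0.92 for TSC22D1, and 0.99 for ZBTB16, 0.43 for TSC22D3 and 0.40 for KLF9 (adjusted p at most 0.00281). At 22 h it was -3.02 for ERRFI1, -1.33 for KLF9, -1.20 for NFKBIA, -1.12 for TSC22D1, -1.04 for SGK1, -0.88 for DUSP1, -0.86 for PER1, -0.72 for CEBPD and -0.33 for TSC22D3, and 1.67 for ZBTB16 (adjusted p at most 0.0077).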

How the results depend on the processing

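No called value of the 10 genes changed direction under any alternative run, and RLE scaling moved the median of all genes by at most 0.0135 on the log2 scale. Counts of called members in VCaP and between lines stayed within 1.5 times under all of them. In LAPC4, whose counts are small, several did not, and the cause was not tested. The first deviation component is centred within groups and computed from these genes too, so that as a covariate it mainly lowers the residual spread, and the calls it adds (26, with 0 lost, of 340 values) are no support for them. With it the counts for R1881 were 4 at 8 h (2 in the main analysis) and 8 at 22 h (5). The other counts under the covariate were 8 for the high dose against R1881 at 22 h (5), 5 and 2 for the low dose against R1881 at 22 h (3) and 8 h (1), 2 each for the high (0) and low (1) dose against DMSO at 8 h, 1 between the doses at 8 h (0) and 3 between the DMSO times (1). With control replicates 6 and above the counts were 3 for R1881 at 22 h (5), 3 for the high dose against R1881 at 22 h (5) and 0 between the DMSO times (1), and with replicates 1 to 5 the low dose against R1881 at 22 h gave 5 (3). Between the control replicates 6 and above and 1 to 5, edgeR called 3929 genes in LAPC4, of the 10 only ERRFI1 (-0.09, adjusted p = 0.00378), and 0 in VCaP (916 at an unadjusted p under 0.05). The single call of the low dose against DMSO at 8 h became 0 with either control subset, no filter, only the compared groups, RLE or the replicate block. The call between the doses at 22 h became 0 with only the compared groups, and DESeq2 gave 2 between the DMSO times (1). Without each darolutamide library in turn, LAPC4 counts ranged from 0 to 1 for the low dose against DMSO at 8 h and from 1 to 2 for the low dose against R1881 at 8 h.

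Replicate numbers in the labels are shared between groups. On average, libraries of 1 number did not deviate together (mean r -0.005 over 149 pairs in VCaP and 0.05 over 161 in LAPC4). Single pairs ranged from -0.501 to 0.455 in VCaP and -0.573 to 0.597 in LAPC4, so a shared origin of some is not excluded. The darolutamide groups hold no replicate number above 5, while LAPC4 controls of 1 to 5 and of 6 and above differed in 3929 genes. What sets that difference was not tested. The block was fitted only to the compared groups and the replicate numbers they share, so it also used fewer libraries. With the replicate number as a block, 12 of 320 calls or values lost the threshold and 3 passed it. In LAPC4 the high dose against R1881 at 8 h then gave 1 call (2) and the low dose 0 (1). No block was possible for DMSO between the lines, and omission of single libraries was not run there. Depth limits CEBPD most, with 10 reads in its lowest library.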
